A study of Mus musculus with 4 samples.

Results

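The replication-dependent histone genes are those that make the bulk of the histone protein a cell needs when it copies its DNA. They were taken as every feature whose symbol starts with Hist1h, Hist2h, Hist3h or Hist4h, which gave 67 of the 32286 features counted. The 67 genes fall into 6 genes of the linker histone H1, 18 of H2A, 18 of H2B, 12 of H3 and 13 of H4. The cells came from Tmem119-2A-CreERT2;Ai6 mice, in which a tamoxifen-inducible Cre recombinase made from the Tmem119 locus switches on the green reporter ZsGreen. All 4 groups carried these alleles. In the stroke groups the right middle cerebral artery was ligated for good (pMCAO), and sham mice had the operation but kept the artery open. The hemisphere on the operated side was taken on day 3, microglia were enriched on a Percoll gradient, and ZsGreen-positive live cells were then collected by flow sorting for droplet single-cell RNA sequencing with the 10x Genomics 3′ v3.1 chemistry. There was 1 sham and 1 stroke pool for each sex, so 4 pools in all, each made from 4 mice. The labels used here give no age and no tamoxifen schedule, and with 1 pool per group the spread between mice is unknown.

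Core histones H2A, H2B, H3 and H4 form the spool around which DNA is wound, and H1 binds the DNA between spools. In dividing cells these genes are transcribed mostly while DNA is replicated, so that new DNA can be packed at once. Their mRNAs are unusual in ending in a short stem-loop, to which the stem-loop binding protein Slbp attaches, and in having no poly-A tail. Several of the genes also give longer, polyadenylated mRNAs, which are known from resting and differentiated cells. The library chemistry primes on poly-A, so the counts below are of the polyadenylated or A-rich part of histone RNA, and a level here is not the total histone mRNA. Microglia, the resident immune cells of the brain, divide after injury.

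The 67 genes lie in 4 places of the mouse genome (build GRCm38, GENCODE M21). The main cluster holds 54 of them between positions 21715763 and 23934851 of chromosome 13. Another 10 lie on chromosome 3 between 96219865 and 96270132, 2 on chromosome 11 between 58948920 and 58956830, and 1 gene, Hist4h4, on chromosome 6 between 136801553 and 136804415. Many are near copies of each other: 30 of 67 had at least 50% of their 50-base stretches also in another of the genes, and counts of such genes may be split or lost between copies. Hist1h1e overlaps Hist1h2be on the same strand, Hist2h2bb overlaps Gm42743 and Hist3h2a overlaps Trim17, so that reads in the shared stretch cannot be told apart.

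The histone stem-loop was looked for in the annotated transcripts (GENCODE M21), on the transcript's strand, as the pattern that the forms below share, with any base at the 3 positions where they differ. It was found in 42 of the 67 genes. These forms are shown because the stem-loop is where the ordinary histone mRNA ends. Capitals mark the loop.
Hist1h2ap: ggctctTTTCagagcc
Hist1h3c: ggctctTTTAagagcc
Hist1h4d: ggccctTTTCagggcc
Hist2h4: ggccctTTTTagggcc
The first form was held by 26 genes and the second by 6. The form of Hist1h4d was held by 7 genes and that of Hist2h4 by 2, all of them H4 genes. In 21 genes the annotated transcripts ended within 100 bases of the stem-loop, as in Hist1h2ap, which ends 3 bases after it. In the other 21 at least 1 annotated transcript ran on for 100 bases or more, by 840 bases in Hist1h1c, 770 in Hist1h4d, 1643 in Hist3h2a and 2445 in Hist4h4. The remaining 25, Hist1h1b and Hist1h2bc among them, held no match, which says only that these letters are not in those transcripts. The poly-A signal AATAAA lay in the last 50 bases of a transcript in 15 of the 67 genes.

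Promoter windows (250 bases before to 50 after the start, RefSeq, GRCm38.p6) were matched for 62 of the 67 genes. The stretches below, the 100 bases before the RefSeq start, are shown as examples, for 1 gene of each class that rose with stroke and for Hist4h4, which fell. Capitals mark 4 motifs on either strand: TATAAA (the TATA box), the CCAAT box, ATTTGCAT (the octamer) and the AC box of H1 genes, AAACACA. On the printed strand ATTGG is a CCAAT box of the opposite strand.
Hist1h1b, chr13:21780626-21780725, minus strand: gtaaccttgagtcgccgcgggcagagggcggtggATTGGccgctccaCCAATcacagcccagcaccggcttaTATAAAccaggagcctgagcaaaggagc
Hist1h2ab, chr13:23750988-23751087, plus strand: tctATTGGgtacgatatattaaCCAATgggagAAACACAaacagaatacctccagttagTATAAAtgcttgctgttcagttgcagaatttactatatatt
Hist1h2bb, chr13:23746634-23746733, plus strand: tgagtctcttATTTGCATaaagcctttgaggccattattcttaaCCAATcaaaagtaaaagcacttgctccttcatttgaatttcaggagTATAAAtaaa
Hist1h3c, chr13:23745522-23745621, minus strand: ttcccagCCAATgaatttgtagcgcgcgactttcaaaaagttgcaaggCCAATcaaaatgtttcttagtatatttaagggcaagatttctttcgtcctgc
Hist1h4d, chr13:23581468-23581567, plus strand: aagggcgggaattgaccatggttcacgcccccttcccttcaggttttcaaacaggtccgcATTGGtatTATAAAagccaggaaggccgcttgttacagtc
Hist4h4, chr6:136804432-136804531, minus strand: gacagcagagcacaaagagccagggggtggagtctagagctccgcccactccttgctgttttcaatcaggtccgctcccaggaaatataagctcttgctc
Over the whole windows, CCAAT was in all 50 matched promoters of H1, H2A, H2B and H3 genes but in 3 of 12 of H4 genes, beside 37.4% of all 32851 promoters. The octamer was in 7 of 18 H2A and 6 of 16 H2B promoters and in none of the 28 others, beside 1.74% of all promoters. TATAAA was in 56.5% of the matched histone promoters and in 13.6% of all, and AAACACA in 5 of 6 H1 promoters and in 7.18% of all. No motif of the 4 lay in the stretch of Hist4h4 shown. A match is a description of letters and was not tied to any expression value.

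Microglia-like cells were those in clusters named from fixed markers such as P2ry12 and Tmem119, and numbered 3168 sham and 2920 stroke cells in females and 3996 and 2766 in males. P2ry12 had a UMI (unique molecular identifier, 1 captured molecule) in at least 97.8% of them in every pool and Tmem119 in at least 92.1%. Their UMI totals ran from 19898664 to 30525507 per pool. Histone genes took no part in the clustering. The cells of the 2 treatments lay mostly in different clusters: 89.1% of female and 92.1% of male sham cells were in clusters 0, 1, 3 and 11, and 85.4% and 82.6% of stroke cells in the other microglia-like clusters. A further cluster, led by Spp1 and Ch25h, was also named microglia, with all 12 microglia markers each in at least 25% of its cells. It was left out because its 10 leading genes held Fn1, a monocyte-derived macrophage marker, and no microglia marker. Clusters 2, 3, 5, 6, 8 and 11, which were kept, held no marker of either kind among theirs. The left-out cluster held 10.9% of female and 12.1% of male stroke cells, and 0% and 0.161% of sham cells. The median share of mitochondrial UMIs was 2.08% and 1.18% in the sham and 4.86% and 4.42% in the stroke microglia-like cells, and the summed monocyte-derived macrophage markers (11 or all 12 of 12 seen) stood at 4.55 to 5.45 UMIs per 10,000 in sham and 12.1 to 12.3 in stroke. The part of either in the results was not tested. Between 4 and 11 barcodes were shared by any pair of pools. All barcodes of the male sham pool had at least 4198 UMIs, against 500 or 501 elsewhere.

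Captured histone RNA took up about double the share of all UMIs in stroke microglia-like cells. All histone genes together gave 6.67 (95% interval 6.55 to 6.78) UMIs per 10,000 in female sham and 14.3 (95% interval 14.2 to 14.4) in female stroke cells. In males the values were 6.89 (95% interval 6.79 to 7.001) and 14.0 (95% interval 13.8 to 14.1) UMIs per 10,000. The ratio of stroke to sham was 2.14-fold (95% interval 2.10 to 2.19) in females and 2.03-fold (95% interval 1.99 to 2.06) in males. These intervals cover counting error only. The share of cells with any histone UMI did not move in 1 direction: in cells thinned to 3000 UMIs it was 76.6% in female sham and 74.5% in female stroke, and 75.2% and 79.2% in males. Without thinning the shares were 88.9%, 90.03%, 89.3% and 91.6% in the order of the pools. Neurons and neutrophils, which no longer divide, were set beside these cells as a background. Of sham neuron-like cells, 23.4% of 282 female and 28.1% of 135 male cells had a histone UMI after thinning. Their median was 5078 and 5698 UMIs per cell (6174 and 5420.5 in sham microglia-like cells). Of neutrophil-like cells in the stroke pools, 73.4% of 64 female and 87.1% of 31 male cells had one. The part of free RNA in any of these shares was not tested.

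Every class was higher in both stroke pools than in both sham pools. Lists of 4 values give sham and then stroke of females, and after them sham and stroke of males. In that order H1 stood at 1.99, 5.42, 2.42 and 4.91 UMIs per 10,000. H2A stood at 1.63, 3.28, 1.44 and 3.53 UMIs per 10,000, and H2B at 1.18, 2.19, 1.08 and 2.27. H3 had the fewest UMIs and the highest ratio, at 0.268, 1.01, 0.359 and 0.946 UMIs per 10,000, or 3.77-fold (95% interval 3.44 to 4.14) in females and 2.63-fold (95% interval 2.44 to 2.85) in males. H4 stood at 1.601, 2.40, 1.59 and 2.31 UMIs per 10,000 and had the lowest ratio, 1.497-fold (95% interval 1.44 to 1.56) and 1.45-fold (95% interval 1.40 to 1.51). Female and male intervals of the ratio did not overlap for H1, H2A, H2B and H3, with H1 and H3 higher in females and H2A and H2B higher in males. That difference between the sexes rests on 1 pool each and was not tested.

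**Figure D1:**
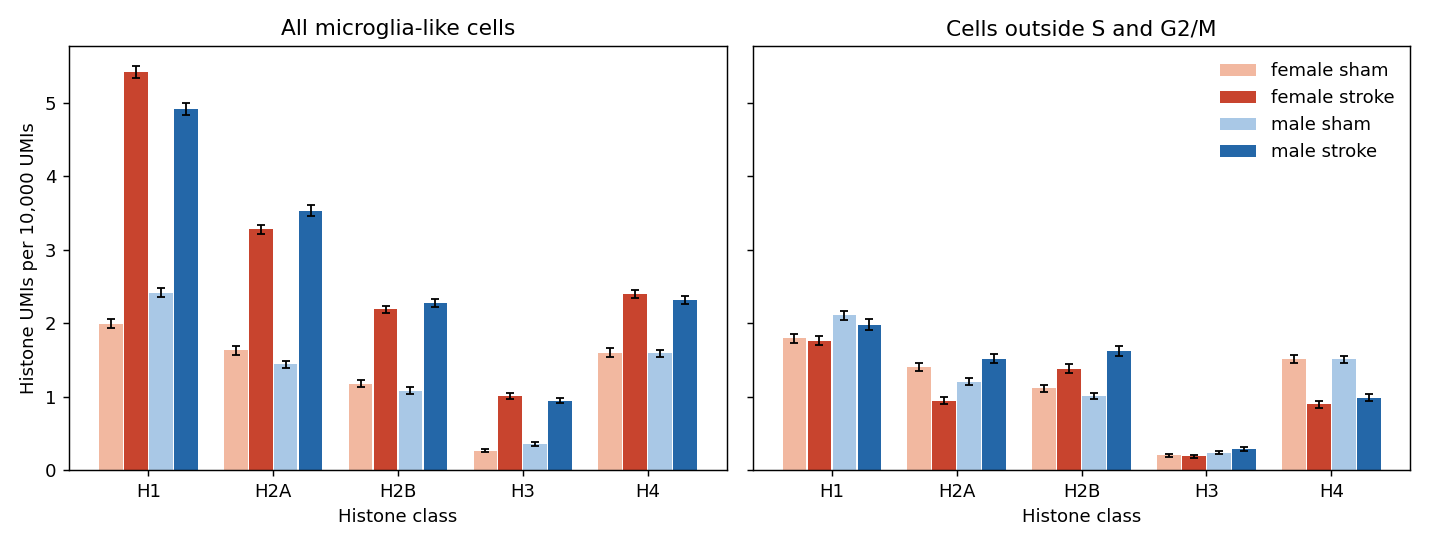
Histone UMIs per 10,000 UMIs by class in the 4 pools, in all microglia-like cells (left) and in those outside S and G2/M (right), with exact Poisson intervals as error bars. In all cells every class is higher in the stroke pools. Outside S and G2/M, H2B is higher in the stroke pool of both sexes, H4 is clearly lower in both, and the other classes differ little or go opposite ways.

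Per gene, stroke was compared with sham over the 4 pools with sex as a term, in edgeR's quasi-likelihood test over all genes, with Benjamini-Hochberg adjustment at 0.05. Of the 67 histone genes 52 rose, 1 fell and 14 did not pass or had too few UMIs to be tested. Over all 13928 genes tested, 21.7% rose and 20.6% fell. With no filter on low counts 52 rose and 1 fell, beside 14.9% and 13.8% of 20958 genes. Scaled by library totals 49 rose and 1 fell (14.5% and 40.4% of all genes tested), and in DESeq2 45 rose and 1 fell (18.4% and 12.2%). The pools did not overlap, with both stroke values above both sham values, for 55 of the 67 genes, and lay the other way for 3, beside 18.0% and 46.5% of all features with a UMI. The median log2 change was 1.93 over the 59 histone genes tested and -0.05 over all genes tested. Single genes are given below in CPM, counts scaled to a microglia-like total that makes 100 CPM equal to 1 UMI per 10,000. The log2 changes come from the fit, and ± is its standard error. In all microglia-like cells it rests on the gene's own difference between the sexes and, with more weight, on a spread shared over genes, and not on mice. Since TMM scaling puts the median of all genes near 0 and division by the library total puts it at -0.31, log2 changes and ratios of CPM differ by about that amount.

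Of the linker genes 5 of 6 rose and none fell. Hist1h1b rose the most by log2 change among them. It stood at 11.5, 224, 17.9 and 183 CPM, a log2 change of 4.06 ± 0.20 (edgeR adjusted p = 4.5e-12). That is 228 sham and 6828 stroke UMIs in females and 425 and 5241 in males, and the gene made up 15.7% and 13.1% of all histone UMIs in the stroke pools. Hist1h1a, the other linker gene with no stem-loop match, stood at 1.61, 17.1, 2.95 and 12.7 CPM (2.94 ± 0.25). The remaining 3 moved less. Hist1h1e stood at 108, 169.8, 154 and 164 CPM (0.63 ± 0.15), with the largest share of histone UMIs in both sham pools, 16.1% and 22.3%. Hist1h1c stood at 63.8, 97.6, 50.02 and 95.9 CPM (1.03 ± 0.14), and Hist1h1d at 14.4, 33.1, 16.9 and 35.0 CPM (1.38 ± 0.15). The highest adjusted p of the 5 in edgeR was 0.0027, for Hist1h1e, whose log2 change was 0.34 without the female sham and 0.98 without the male sham pool. Hist1h1t, a testis linker histone, had 17 UMIs in all and was not tested.

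H2A genes pair with H2B in the spool. Of the 18, 12 rose and none fell. Hist1h2ap stood at 17.1, 82.9, 11.2 and 74.0 CPM (2.76 ± 0.15, edgeR adjusted p = 2.3e-11). Hist1h2ae stood at 20.6, 70.9, 21.8 and 82.2 CPM (2.11 ± 0.14). Hist1h2ab stood at 4.62, 22.1, 3.54 and 21.6 CPM (2.69 ± 0.18). In all 3 the stroke values were several times the sham values in both sexes. Hist1h2an was at 2.21, 18.3, 5.14 and 16.6 CPM (2.53 ± 0.24). Hist1h2ak was at 1.71, 8.62, 1.18 and 8.27 CPM (2.82 ± 0.25). Hist1h2af was at 1.31, 8.03, 1.26 and 6.53 CPM (2.75 ± 0.26). These 3 showed log2 changes between 2.53 and 2.82, close to each other within their errors. Hist1h2ag, at 0.151, 2.88, 0.421 and 2.27 CPM, had the highest log2 change of the class (3.36 ± 0.45), on 13 sham UMIs. Hist1h2ac was at 13.7, 19.4, 17.9 and 36.9 CPM (1.04 ± 0.16). Hist2h2aa1 was at 5.93, 9.63, 5.14 and 10.7 CPM (1.14 ± 0.19). The rise was smaller in these last 2. Hist1h2ad was at 1.31, 2.23, 1.10 and 3.07 CPM (1.39 ± 0.33). Hist2h2ac was at 22.9, 39.6, 33.5 and 37.0 CPM (0.72 ± 0.16), with sham and stroke pools of males 33.5 and 37.0 CPM, close to each other. The sexes went opposite ways in Hist3h2a, at 69.2, 40.9, 40.0 and 51.4 CPM (0.06 ± 0.18, edgeR adjusted p = 0.83), and its pools overlapped. Hist2h2ab was at 1.31, 0.655, 1.39 and 1.08 CPM (-0.40 ± 0.39, edgeR adjusted p = 0.44). Of these genes Hist1h2ap, Hist1h2ab, Hist1h2an, Hist1h2ak, Hist1h2af, Hist1h2ad, Hist1h2ag and Hist2h2aa1 share at least 50% of their 50-base stretches with other members, so that their single values are uncertain.

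Of the 18 H2B genes, 15 rose and none fell. Hist1h2bc, the H2B gene with the most UMIs, stood at 59.5, 107, 54.2 and 113 CPM (1.21 ± 0.14, edgeR adjusted p = 6.8e-07). Hist2h2bb stood at 2.41, 16.3, 3.41 and 11.9 CPM (2.51 ± 0.22). Hist1h2bj stood at 2.71, 12.7, 2.87 and 14.5 CPM (2.54 ± 0.20). In each of these the 2 stroke pools lay above the 2 sham pools. Hist1h2bm was at 1.71, 9.44, 1.98 and 8.38 CPM (2.52 ± 0.23). Hist1h2bh was at 1.41, 6.19, 1.01 and 5.38 CPM (2.52 ± 0.27). Hist1h2br was at 1.005, 3.44, 0.885 and 3.98 CPM (2.23 ± 0.31). All 3 had log2 changes above 2. Hist1h2bn was at 1.86, 7.11, 1.64 and 6.21 CPM (2.18 ± 0.25). Hist1h2bb was at 2.11, 7.40, 2.06 and 7.82 CPM (2.12 ± 0.23). Hist3h2ba, from the locus on chromosome 11, was at 2.92, 6.19, 1.601 and 7.19 CPM (1.86 ± 0.27). Smaller rises were seen in the next 3 genes. Hist1h2bg was at 2.71, 7.99, 3.96 and 9.36 CPM (1.64 ± 0.21). Hist1h2bf was at 1.86, 2.95, 2.36 and 4.36 CPM (1.04 ± 0.27). Hist2h2be was at 4.47, 5.54, 2.49 and 4.71 CPM (0.86 ± 0.24). Hist1h2be stood apart, at 32.6, 22.8, 29.4 and 27.2 CPM: its stroke pools lay below its sham pools, and the fitted log2 change was -0.06 ± 0.15 (edgeR adjusted p = 0.79). Hist1h2bj, Hist1h2bf, Hist1h2bn and Hist1h2br share at least 50% of their 50-base stretches with other members.

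H3 carries the tail on which many chromatin marks sit. Of the 12 H3 genes 10 rose and none fell. Hist1h3c stood at 2.56, 32.4, 5.44 and 26.04 CPM (3.13 ± 0.24, edgeR adjusted p = 2.6e-09). Hist1h3d stood at 4.07, 17.3, 6.45 and 18.8 CPM (2.05 ± 0.18). Hist1h3e stood at 9.40, 21.2, 12.9 and 20.4 CPM (1.17 ± 0.17). The rise of Hist1h3e was the smallest of these 3. Hist1h3i was at 0.905, 7.17, 1.69 and 7.05 CPM (2.71 ± 0.28). Hist1h3f was at 1.71, 6.55, 1.69 and 5.55 CPM (2.08 ± 0.25). Hist1h3b was at 0.402, 4.82, 0.632 and 3.88 CPM (3.29 ± 0.35). All 3 were at most 1.71 CPM in the sham pools. Hist1h3g had no UMI in the female sham pool and 2 in the male sham pool, against 55 and 43 in stroke, or 1.80 and 1.501 CPM. Set against the 3 UMIs that a count of 0 allows (0.151 CPM in that pool), it was at least 11.9-fold higher in female stroke; its fitted log2 change, 5.27 ± 0.69, depends on the prior count and is no bound. Hist1h3a was at 3.47, 4.85, 3.67 and 5.24 CPM (0.76 ± 0.23). The next 3 genes lie on chromosome 3. Hist2h3c2 was at 0.754, 1.21, 0.464 and 1.36 CPM (1.35 ± 0.43). Hist2h3b was at 0.704, 1.54, 0.632 and 1.15 CPM (1.25 ± 0.41). Hist2h3c1 was at 2.76, 1.90, 2.32 and 3.46 CPM, with overlapping pools (0.30 ± 0.30, edgeR adjusted p = 0.46). Hist1h3e, Hist1h3i, Hist1h3b, Hist1h3g, Hist2h3b and Hist2h3c2 share at least 50% of their 50-base stretches with other members.

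H4 forms the centre of the spool with H3. Of the 13 genes 10 rose and 1 fell. Hist1h4d stood at 99, 156, 92.2 and 149 CPM (0.93 ± 0.14, edgeR adjusted p = 1.7e-05) and was the H4 gene with the most UMIs in each pool. Hist1h4i stood at 8.14, 25.6, 7.59 and 24.6 CPM (1.93 ± 0.16). Hist1h4b stood at 0.754, 2.52, 0.126 and 2.41 CPM (2.86 ± 0.46), on 18 sham UMIs. The 3 had both stroke pools above both sham pools. Hist1h4a was at 1.21, 2.88, 1.601 and 3.63 CPM (1.47 ± 0.30). Hist1h4j was at 0.251, 2.23, 0.632 and 1.54 CPM (2.29 ± 0.45). Hist1h4h was at 16.5, 18.6, 14.0 and 19.5 CPM (0.58 ± 0.15). Hist1h4b shares at least 50% of its 50-base stretches with other members, and its single value is uncertain. In the plot of changes per gene the H4 genes run from well above 1 to below 0. Hist1h4c was at 8.89, 11.2, 9.19 and 10.9 CPM (0.55 ± 0.17). Hist2h4 was at 7.44, 7.76, 6.74 and 5.20 CPM (0.11 ± 0.20, edgeR adjusted p = 0.7), and its pools overlapped. Hist4h4, the gene on chromosome 6, fell: it stood at 16.8, 8.98, 26.4 and 10.7 CPM, a log2 change of -0.85 ± 0.16 (edgeR adjusted p = 0.00035). It was called lower in every setting tried, with a log2 change of -0.43 without the male sham pool.

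Besides these 51 genes with at least 100 UMIs, 13 had between 4 and 95 UMIs over the 4 pools and 3 (Hist1h2aa, Hist1h2ba and Hist1h2bq) had none, where a count of 0 allows up to 3 UMIs, so that these 3 were not detectable at this depth. Of the 46 named genes that passed the test, 37 passed with each pool left out in turn. The 9 that failed at least once were Hist1h2ac, Hist1h2ad, Hist1h2bf, Hist2h2be, Hist1h3a, Hist2h3b, Hist2h3c2, Hist1h4c and Hist1h4h, and Hist1h2ac fell to a log2 change of 0.55 without the male stroke pool. The log2 change of Hist2h2ac was 0.42 without the female sham and 1.09 without the male sham pool, that of Hist2h2be was 0.55 without the male sham pool, and that of Hist1h4b was 4.46 without the female sham pool. Fits with a pool left out had no sex term, so they differ from the main fit in more than the pool.

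**Figure D2:**
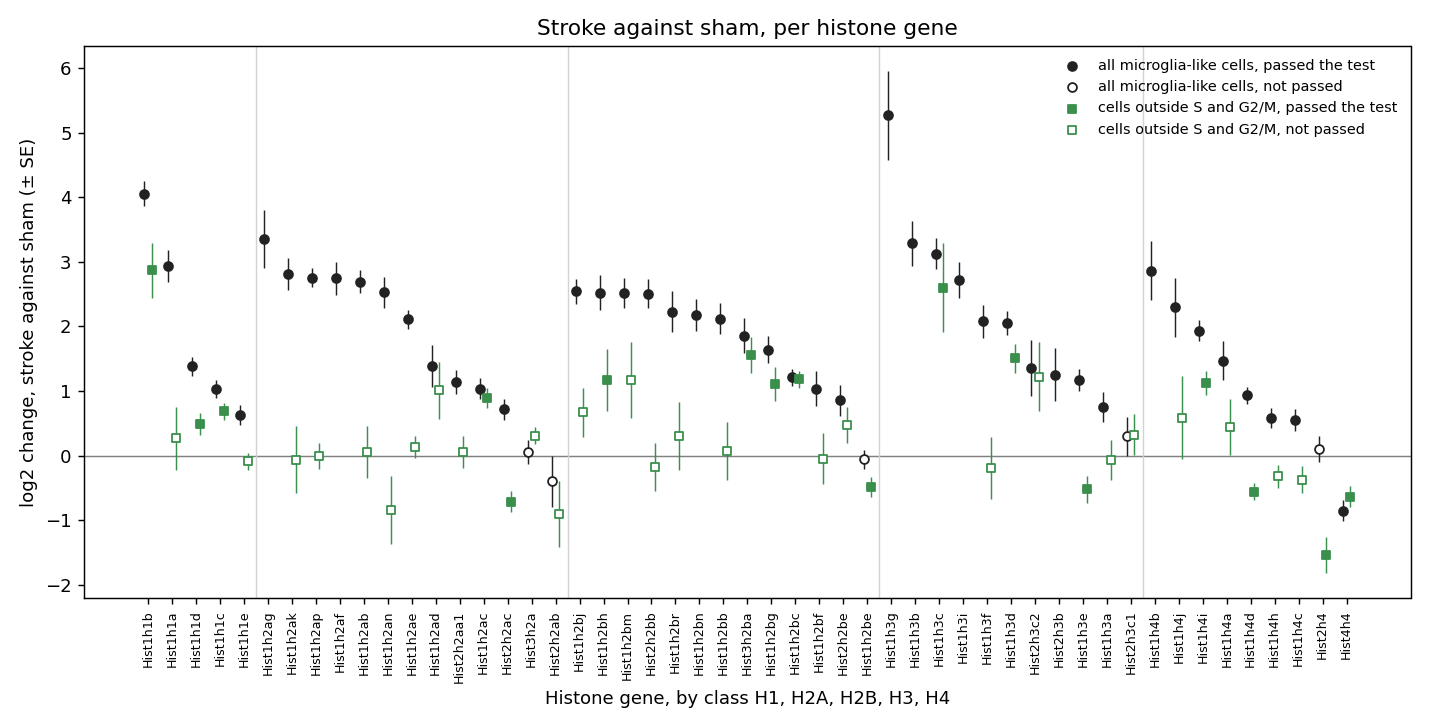
Log2 change between stroke and sham (vertical axis, ± SE of the fit) of the 51 named histone genes (horizontal axis, by class), in all microglia-like cells (black circles) and in those outside S and G2/M (green squares). Filled symbols passed the test, and genes too low to be tested in the second fit have no square. Most black circles lie well above 0, whereas the green squares lie on both sides of 0.

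To see which cells carried the rise, each cell of at least 3000 UMIs was thinned to 3000 and put in the S state where 32 DNA replication genes had at least 3 UMIs and more than 36 mitosis genes, in the G2/M state where the mitosis genes had at least 3 UMIs and no fewer than the replication genes, and otherwise in neither. No histone gene is in either list. The G2/M state held 0.594% of female sham and 21.6% of female stroke cells, and 0.976% and 19.1% in males. The S state held 4.50%, 10.3%, 5.13% and 9.36%. A state is a range of a score and not a measured phase: 276 to 539 cells per pool had a larger list sum of 2 or 3, next to the threshold.

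Outside both states the histone level was 0.859 (females) and 1.06 (males) times that of sham. Cells in neither state had 6.03 (95% interval 5.91 to 6.14) histone UMIs per 10,000 in female sham and 5.18 (95% interval 5.07 to 5.29) in female stroke. In males they had 6.06 (95% interval 5.96 to 6.16) and 6.40 (95% interval 6.27 to 6.52). The level was therefore lower with stroke in females and slightly higher in males. On this scale of totals the median of all genes tested changed by -0.32 (log2) outside both states, so that a ratio of 1 lies above the median gene. In G2/M cells of the stroke pools it was 28.0 (95% interval 27.7 to 28.3) and 26.7 (95% interval 26.4 to 27.1) UMIs per 10,000, and in S cells 13.3 (95% interval 12.9 to 13.7) and 16.7 (95% interval 16.3 to 17.2). G2/M cells gave 70.7% and 60.0% of the histone UMIs in the stroke pools, against 11.4% and 12.98% in the sham pools. Counted against all UMIs of the pool's cells with a state, G2/M cells contributed 10.2 of 14.4 histone UMIs per 10,000 in female stroke and 0.761 of 6.70 in female sham. In males they contributed 8.43 of 14.1 and 0.895 of 6.89. The few sham cells in G2/M, 17 female and 39 male, had higher levels than those of stroke, 60.6 and 53.1 UMIs per 10,000.

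Within the 2 stroke pools, with pool as a block, 46 of the 67 genes were higher and 6 lower in S than in neither state, beside 24.7% and 20.5% of the 12275 genes tested. In G2/M against neither, 54 were higher and 2 lower (Hist3h2a and Hist4h4), beside 31.1% and 31.2%, and DESeq2 gave 54 and 1, beside 24.2% and 18.7%. Between S and G2/M 35 were lower in S and none higher, beside 10.5% and 10.8%. With no filter on low counts 44 were higher and 6 lower in S than in neither (14.6% and 14.4% of all genes). In G2/M against neither the counts without a filter were 56 and 2 (19.5% and 20.4%), and between S and G2/M none was higher in S and 39 were lower (6.45% and 7.87%). The S state was sensitive to its rule: with a list sum of 1 in place of 3 as the minimum, 31 genes were higher and 2 lower in S than in neither. A fit of the states over all 4 pools was not made, because the female sham pool had fewer than 20 G2/M cells.

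The S and the G2/M state each held cells of different kinds, as a finer split, chosen after seeing the data, showed. With at least 3 UMIs of both lists, of the S list alone, or of the G2/M list alone, cells with both lists had 34.0 and 36.3 histone UMIs per 10,000 in the female and male stroke pools. Cells with the S list alone had 4.29 and 4.00, and cells with the G2/M list alone 13.2 and 11.3 UMIs per 10,000. The 406 female and 307 male stroke cells with both lists were 15.2% and 12.2% of the cells and gave 67.7% and 62.0% of the histone UMIs. Their median depth was 17556 and 18112 UMIs, against 7456 and 7575 in neither state and 8706 and 10215 with the S list alone. Doublets were not removed, and their part in this was not tested. In sham, the 13 female and 47 male cells with both lists had 65.2 and 49.99 UMIs per 10,000.

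Over the 2 lists together, the histone level was highest where both were high. Among stroke cells with 8 or more S list UMIs it was 3.04 UMIs per 10,000 with no G2/M list UMI (29 cells), 3.77 with 1 or 2 (49 cells) and 50.1 with 20 or more (136 cells). Among cells with no S list UMI it was 5.57 with no G2/M list UMI (1705 cells), 11.1 with 10 to 19 (53 cells) and 7.20 with 20 or more (37 cells). With 1 list at 0, no bin of the other went above 11.1.

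**Figure D3:**
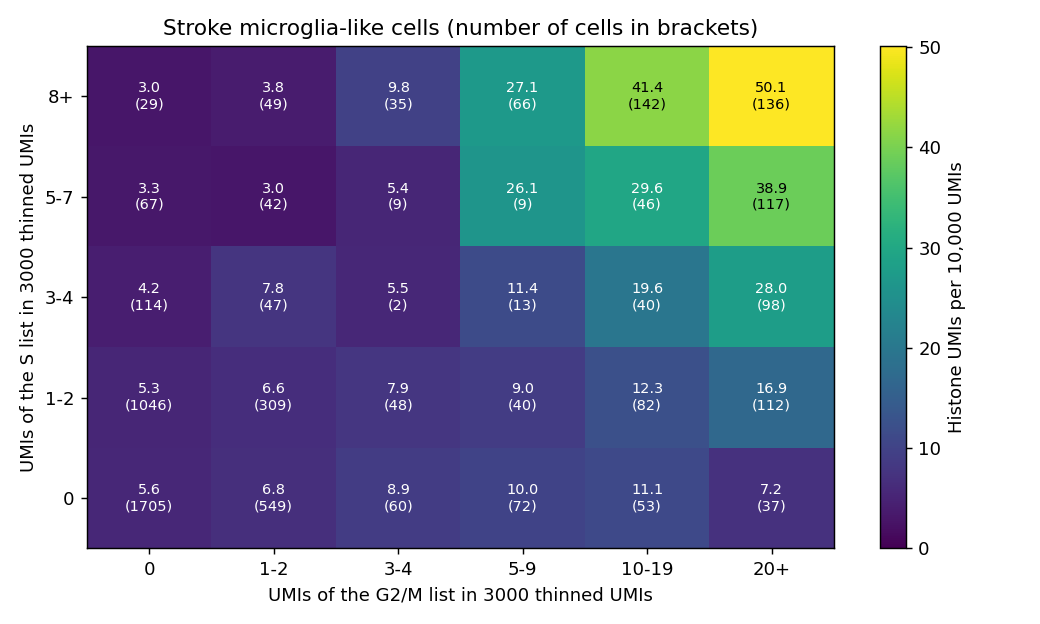
Histone UMIs per 10,000 (colour and upper number) in stroke microglia-like cells, by the UMIs of the G2/M list (horizontal axis) and of the S list (vertical axis) in 3000 thinned UMIs, with the number of cells in brackets. The level stays between 3.04 and 11.1 along both edges where 1 list is at 0 and reaches 50.1 where both are high.

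Gene by gene, 50 of the 67 genes were higher and 2 lower in cells with both lists than in neither state, beside 33.5% and 33.5% of 11542 genes tested. With the G2/M list alone 43 were higher and 1 lower, beside 24.8% and 22.7%. With the S list alone 4 were higher and 8 lower, beside 14.6% and 10.3%. With no filter on low counts 55 were higher and 2 lower with both lists (20.2% and 20.9% of all genes), 44 and 1 with the G2/M list alone (14.0% and 14.1%), and 5 and 8 with the S list alone (7.57% and 7.49%). The 4 genes higher with the S list alone were Hist1h1a, Hist1h1b, Hist1h2an and Hist1h3c, and the 8 lower were Hist1h1c, Hist1h1e, Hist1h2ac, Hist3h2a, Hist1h2bc, Hist3h2ba, Hist2h3c1 and Hist4h4. With the left-out cluster in the class, 8 were higher and 10 lower.

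The genes fell along a range between 2 ends. Hist1h1b, at the 1 end, was at 3.19, 35.6, 132 and 720.4 CPM in female stroke cells with neither list, the S list, the G2/M list and both lists, in that order. In male stroke cells it was at 2.90, 10.9, 66.7 and 727 CPM, and the log2 change of both lists against neither was 7.91 ± 0.17 (edgeR adjusted p = 9.4e-27). In the neither state it had under 1% of its stroke UMIs, 0.735% in females and 0.881% in males. Hist1h3c, in the same order, was at 1.02, 4.65, 30.04 and 98.2 CPM in female and 0.757, 3.81, 16.6 and 98.4 CPM in male stroke cells (6.78 ± 0.17). Hist1h2ap was at 5.61, 18.6, 64.9 and 250.5 CPM and 8.90, 6.54, 45.2 and 265 CPM (5.16 ± 0.13). In these 3 genes the cells with both lists lay far above all others in both pools. Hist1h4d was intermediate, at 45.8, 53.2, 114 and 400.0 CPM and 53.7, 49.6, 97.2 and 432 CPM (3.08 ± 0.07), with a sizeable level in the neither state. Hist1h1c was at 70.7, 34.6, 155 and 137 CPM and 75.7, 31.1, 137 and 139 CPM, lowest with the S list alone and about as high with the G2/M list as with both (0.93 ± 0.07).

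At the other end, Hist1h2bc and Hist3h2a were lower in cells with both lists than in neither state. Hist1h2bc was at 104, 61.0, 212 and 79.8 CPM in female and 112, 73.6, 203 and 80.4 CPM in male stroke cells, in the same order, so that cells with the G2/M list alone stood highest. Its log2 change of both lists against neither was -0.42 ± 0.07 (edgeR adjusted p = 5.8e-06), and with the G2/M list alone 0.97 ± 0.07 (edgeR adjusted p = 5.1e-13). Hist3h2a was at 48.2, 19.1, 56.1 and 25.4 CPM in female and 62.7, 16.9, 64.2 and 26.1 CPM in male stroke cells (-1.08 ± 0.10, edgeR adjusted p = 3.2e-11). Hist4h4 was at 10.6, 3.62, 3.72 and 9.09 CPM and 12.3, 3.27, 6.26 and 10.2 CPM, lower with either list alone than in neither state, and did not pass with both (-0.23 ± 0.17, edgeR adjusted p = 0.23). No other tested member was lower with both lists and past the test.

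**Figure D4:**
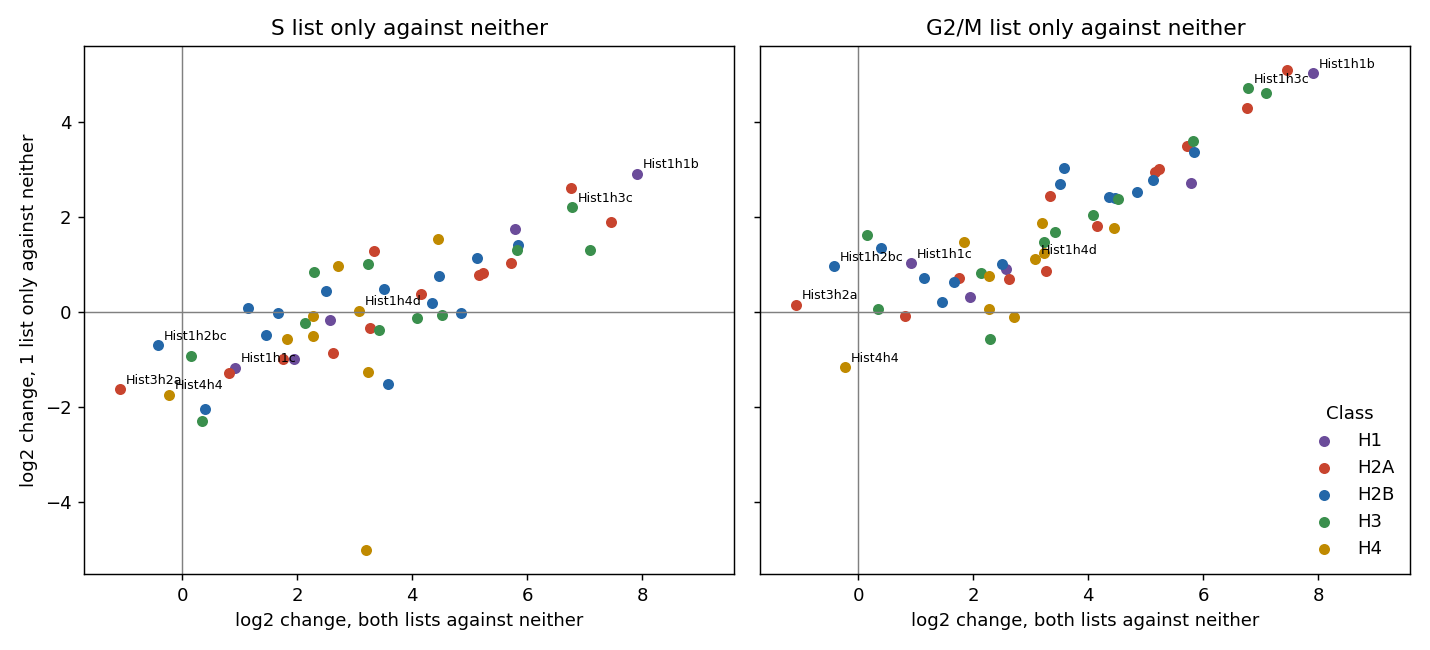
Log2 change against cells with neither list of the histone genes in stroke cells with the S list alone (left, vertical axis) and with the G2/M list alone (right, vertical axis), set against the change in cells with both lists (horizontal axis). Each point is a gene, coloured by class. Hist1h1b lies at the upper right in both panels (7.91 with both lists), Hist3h2a at the far left (-1.08), and the point near -5.0 on the left is Hist1h4j, whose change there has an adjusted p of 0.22. The 3 changes share the cells with neither list.

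The genes whose annotated transcripts run on past the stem-loop gave most histone UMIs in cells in neither state. There they made up 76.7% and 77.8% of histone UMIs in the sham and 69.7% and 71.3% in the stroke pools. Most of that came from Hist1h1e, Hist1h4d, Hist1h1c and Hist3h2a. Of histone UMIs in neither state Hist1h1e gave 17.1, 17.0, 24.4 and 16.2%, and Hist1h4d 15.3, 8.85, 14.2 and 8.40%. Hist1h1c gave 10.4, 13.7, 8.09 and 11.8%, and Hist3h2a 11.7, 9.30, 6.83 and 9.81%. In stroke cells with both lists the genes that run on made up 45.5% and 46.7%. In UMIs per 10,000 they stood at 4.62, 3.61, 4.71 and 4.56 in neither state and at 30.2, 15.5, 22.9 and 16.9 in cells with both lists. Genes ending within 100 bases of the stem-loop stood at 0.638, 0.384, 0.638 and 0.534 UMIs per 10,000 in neither state and at 18.5, 7.35, 13.02 and 8.05 with both lists. Genes with no match, summed, were higher with stroke in neither state, at 0.769, 1.19, 0.707 and 1.30 UMIs per 10,000. With both lists they stood at 16.6, 11.2, 14.1 and 11.3. Their share of histone UMIs in neither state was 12.8% and 11.7% in the sham and 22.9% and 20.3% in the stroke pools. Hist1h2bc alone gave 1103 of 1394, 1629 of 1863, 1214 of 1554 and 1778 of 2059 UMIs of this group there. The rise of the sum and of its share is therefore mainly that of 1 gene. The median log2 change of both lists against neither was 4.06 over the 17 tested genes that end near the stem-loop (range 1.76 to 7.09), 1.89 over the 20 that run on (-1.08 to 4.53) and 4.45 over the 19 with no match (-0.42 to 7.91). The 3 ranges overlapped widely, these are medians over genes tested only, and no test was made between them.

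**Figure D5:**
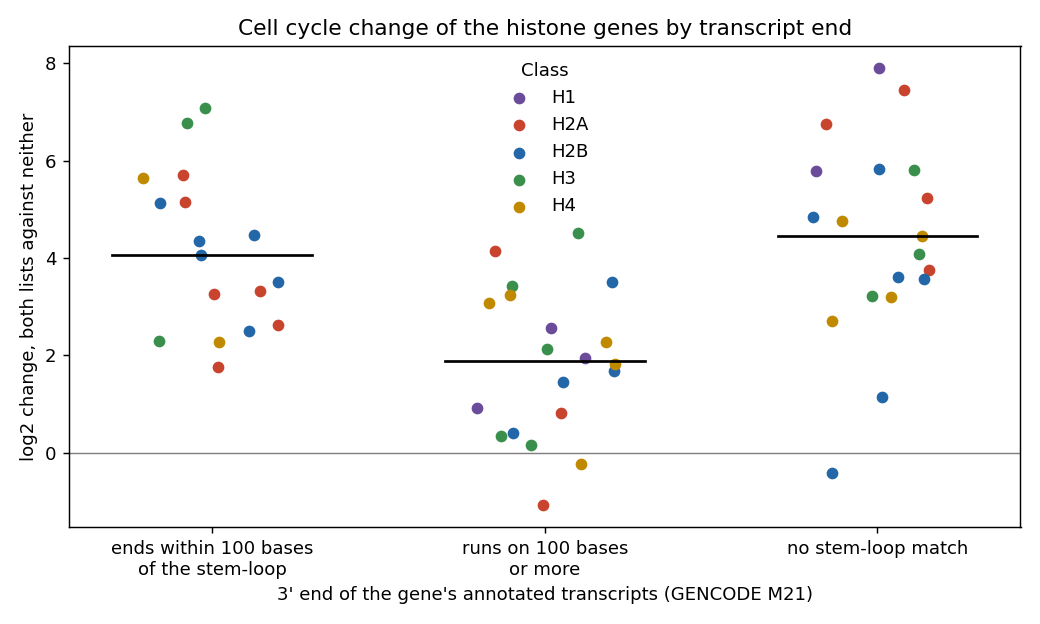
Log2 change of the tested histone genes between stroke cells with both lists and with neither (vertical axis), by the 3′ end of their annotated transcripts (horizontal axis), coloured by class, with the median of each group as a line. The medians are 4.06, 1.89 and 4.45, and the groups overlap.

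Outside S and G2/M the genes moved in both directions between stroke and sham. Of the 67, 43 had enough UMIs to be tested. Of these 11 rose and 6 fell, beside 16.8% and 14.3% of the 13078 genes tested. With no filter 10 rose and 6 fell, beside 9.87% and 9.23%, and scaled by library totals 9 rose and 10 fell, beside 9.45% and 41.2%. In DESeq2 8 rose and 3 fell, beside 10.9% and 6.06%. In the edgeR fit the spread was taken wholly from a trend over all genes, so that ± and p-values outside S and G2/M do not reflect how far a gene's change differed between the sexes. The pools lay apart with stroke above sham for 18 of the 67 genes and with stroke below sham for 18, beside 13.7% and 47.5% of all features with a UMI. The count that fell was 1 without the female stroke pool and 2 without the male sham pool, and the count that rose was 7 without the male stroke pool. The 11 were Hist1h1b, Hist1h1c, Hist1h1d, Hist1h2ac, Hist1h2bc, Hist1h2bg, Hist1h2bh, Hist3h2ba, Hist1h3c, Hist1h3d and Hist1h4i, and the 6 were Hist2h2ac, Hist1h2be, Hist1h3e, Hist1h4d, Hist2h4 and Hist4h4. With each pool left out in turn 7 of the 17 passed every time: Hist1h1b, Hist1h1c, Hist1h2bc, Hist3h2ba, Hist1h3d, Hist1h4i and Hist2h4.

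By class on the total scale, H2B was higher with stroke in both sexes outside S and G2/M, at 1.11, 1.38, 1.004 and 1.62 UMIs per 10,000, a ratio of 1.24-fold (95% interval 1.17 to 1.32) in females and 1.61-fold (95% interval 1.52 to 1.71) in males. Hist1h2bc had the largest part in that, at 60.9, 104, 55.3 and 112 CPM (1.18 ± 0.13, edgeR adjusted p = 6.6e-17). Without Hist1h2bc, the other H2B genes together stood at 0.504 UMIs per 10,000 in sham and 0.343 in stroke of females, a ratio of 0.682-fold (95% interval 0.612 to 0.759), and at 0.452 and 0.499 in males, a ratio of 1.10-fold (95% interval 1.004 to 1.21). H4 was lower in both sexes, at 1.51, 0.896, 1.51 and 0.986 UMIs per 10,000, a ratio of 0.593-fold (95% interval 0.555 to 0.632) and 0.654-fold (95% interval 0.616 to 0.695). Its main gene Hist1h4d was at 92.0, 45.8, 86.1 and 53.7 CPM (-0.56 ± 0.13, edgeR adjusted p = 0.00024), and did not pass without the female stroke pool (-0.44). Hist2h4 was at 7.29, 1.78, 6.28 and 2.02 CPM (-1.54 ± 0.28, edgeR adjusted p = 3.6e-07), the largest fall of the 6.

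H1 moved little there, at 1.80, 1.76, 2.11 and 1.98 UMIs per 10,000, a ratio of 0.983-fold (95% interval 0.934 to 1.03) and 0.940-fold (95% interval 0.898 to 0.984). Hist1h1c was at 62.5, 70.7, 49.0 and 75.7 CPM (0.69 ± 0.13, edgeR adjusted p = 3.3e-06). Hist1h1e was at 103, 88.1, 148 and 103 CPM and did not pass (-0.09 ± 0.13, edgeR adjusted p = 0.65). Hist1h1b was at 0.607, 3.19, 0.410 and 2.90 CPM (2.87 ± 0.43, edgeR adjusted p = 5.1e-10), a small fraction of its level in cells with both lists. H3 was at 0.205, 0.191, 0.236 and 0.286 UMIs per 10,000, with Hist1h3d at 2.98, 7.46, 5.01 and 11.1 CPM (1.51 ± 0.22). H2A went opposite ways in the sexes, at 1.40, 0.945, 1.21 and 1.52 UMIs per 10,000. Hist3h2a had the largest part in that, at 70.8, 48.2, 41.4 and 62.7 CPM.

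Genes that supply, transcribe or process histones were looked at as a list of 22, all of them tested between stroke and sham in all microglia-like cells. Of these 10 rose and 1, the H3 and H4 chaperone Asf1a, fell, beside 21.7% and 20.6% of all genes tested, with a median log2 change of 0.33. The 3 with the largest change were Chaf1b, Chaf1a and Asf1b, chaperones that load H3 and H4 onto new DNA. Chaf1b stood at 1.005, 10.1, 2.61 and 10.8 CPM (2.81 ± 0.26, edgeR adjusted p = 5.6e-08). Chaf1a stood at 2.51, 16.2, 2.70 and 14.3 CPM (2.80 ± 0.20). Asf1b stood at 4.82, 29.6, 7.12 and 23.8 CPM (2.41 ± 0.20). All 3 had both stroke pools above both sham pools. Slbp, which binds the stem-loop, stood at 74.0, 64.8, 75.1 and 65.5 CPM and did not pass (0.06 ± 0.13, edgeR adjusted p = 0.73). Outside S and G2/M 3 of the 22 rose (Nasp, Chaf1b and Daxx) and 4 fell (Slbp, Lsm11, Eri1 and Asf1a), beside 16.8% and 14.3% of all genes, with a log2 change of -0.48 ± 0.13 for Slbp (edgeR adjusted p = 0.0021). In stroke cells with both lists against neither 16 rose and 1 (Lsm10) fell, beside 33.5% and 33.5%, with Slbp at 1.54 ± 0.08. With the S list alone, where few histone genes were higher, 12 rose and 1 (Pou2f1) fell, beside 14.6% and 10.3%, with Slbp at 1.55 ± 0.10. Chaf1b belongs to the S list and so helped to set the states. Variant or replication-independent histones were a list of 11. Of these 9 rose and none fell in all microglia-like cells, beside 21.7% and 20.6% of all genes, with a median log2 change of 1.08. Cenpa, the H3 variant of centromeres, stood at 8.54, 121, 11.4 and 111 CPM (3.79 ± 0.17, edgeR adjusted p = 1.4e-12). H2afx, the H2A form marked at DNA breaks, stood at 15.6, 107, 23.1 and 95.7 CPM (2.66 ± 0.17). H1fx stood at 0.452, 3.18, 1.26 and 2.62 CPM (2.02 ± 0.39). H2afy2 and H3f3b did not pass. Outside S and G2/M 8 of the 11 rose and none fell, beside 16.8% and 14.3%. In stroke cells with both lists and with the G2/M list alone all 10 tested variants were higher than in neither state, beside 33.5% and 24.8% of all genes, while with the S list alone 1 (H2afz) was higher and 2 (H3f3b and H1f0) were lower, beside 14.6% and 10.3%. Both lists were chosen with earlier results of these data known.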

How the data were processed

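RNA of single sorted cells was measured in 4 pools, 1 per group, and no labels or headers give any further replicate. The deposited values are whole-number counts of UMIs per gene and cell barcode, made by the authors with Cell Ranger 7.1.0 on mm10 per the submitters' processing notes, whereas the file headers name cellranger 6.1.2. The use of intronic reads in counting is not stated in the notes, labels or headers. The depth was 29581392 to 66072270 UMIs over the 20437 barcodes, per pool.

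Barcodes with at least 500 genes, 1000 UMIs and at most 10% mitochondrial UMIs were kept (18045). Without the histone genes, 2000 variable genes, 30 components, 15 neighbours and Leiden resolution 0.8 gave clusters (scanpy 1.11.5), which were named from markers by at least 3 markers with UMIs and the 10 leading genes. The Spp1-led cluster was left out for its leading genes. No doublet caller was run. States used cells thinned to 3000 UMIs, so 304, 257, 0 and 255 shallower microglia-like cells have none. Pool sums were tested in edgeR 4.0.16 (quasi-likelihood, TMM, filterByExpr, sex or pool as a term) over all genes, with Benjamini-Hochberg adjustment, and in DESeq2 1.42.0 as an alternative. Each fit of stroke against sham has 1 residual degree of freedom, and standard errors are the log2 change over the root of F. Since each group is 1 pool of 4 mice, no p-value measures the spread between mice. In stroke against sham over all microglia-like cells, p-values in edgeR rest partly on the spread between pools. A spread shared over genes has more weight there, and outside S and G2/M it is the only one used. On simulated counts for 13928 genes in stroke against sham (3 draws), 97.9% of genes raised by a log2 change of 2 were recovered. Of those raised by 1, 80.7% were recovered, and 5.0% of calls were false. In G2/M and S against neither, 5.81% and 5.77% of calls were false. The simulation changed few genes, in both directions, without a sex effect and with the spread the fit had estimated. It cannot give the error rate in these data, where 21.7% of genes rose and 20.6% fell.

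Genes named are all histone genes with at least 100 UMIs over the pools and, of the other lists, the 3 with the largest change; further supply genes and variants named beside small counts were chosen after their values were seen. The members, lists and markers were chosen with earlier results of these data known. Intervals of levels are exact Poisson and those of ratios exact binomial, at 95%, for counting error only. UMI counts are not scaled to gene length, so a gene or class with more UMIs than another is not shown to have more mRNA. The alternatives were library totals, no filter, DESeq2, no sex or pool term, each pool left out, a stricter quality filter, an equal UMI minimum, histone genes in the clustering, resolution 1.6, state minimums of 1 and 5 and thinning to 2000. With a pool left out the fit had no sex term and a single pool in 1 treatment. The finer split by both lists and the setting with the left-out cluster were chosen after seeing the data. A fit of states over all 4 pools was not run, since the female sham pool has 17 G2/M cells, under the minimum of 20. Under the stricter filter and the equal UMI minimum a sham cluster with Fscn1 among its leading genes and no microglia marker there stayed in the class. Under the stricter filter a cluster of 732 cells with Ccl4, Spp1 and Ch25h among its leading genes stayed in as well. Its 10 leading genes held no monocyte-derived macrophage marker, so the rule that left out the Spp1-led cluster did not apply.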

Additional observations from a re-analysis of the deposited data

Results flagged for a closer look

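For 3 genes and the sums named below, the stroke pool lay below the sham pool in females and above it in males, beyond counting error in both sexes. The difference between the sexes was not tested, since each rests on 1 pool. On the scale of pool totals, the log2 ratio of Hist3h2a in all microglia-like cells was -0.76 in females and 0.36 in males, a gap of 1.122, and outside S and G2/M it was -0.55 in females and 0.60 in males, a gap of 1.155. Hist3h2a overlaps Trim17 on the same strand. Outside S and G2/M the log2 ratio of Hist1h2ap was -1.02 in females and 0.40 in males, a gap of 1.421. For Hist1h2ae it was -0.69 in females and 0.30 in males, a gap of 0.993. The H2A sum outside S and G2/M had a gap of 0.904 and the sum of all histone genes there a gap of 0.298.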

How the results depend on the processing

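Histone sums cover captured, polyadenylated RNA and single genes with under 100 UMIs are too shallow to be read alone. The count of 52 higher and 1 lower genes in all microglia-like cells moved to between 43 and 52 higher over all alternatives, and the 1 lower gene was Hist4h4 in each fit that gave its value. Calls outside S and G2/M depend on the pools: without 1 pool 7 to 11 genes were higher and 1 to 6 lower. There, 10 were lower by library totals and 3 in DESeq2. In S against neither 2 were lower with a state minimum of 1. In G2/M against neither 1 was lower in DESeq2, with a state minimum of 1, of 5, or with the left-out cluster. With the S list alone 8 were higher with that cluster. The log2 ratio of total histone UMIs in all microglia-like cells (mean of both sexes) was 1.06, with 0.969 under the stricter filter, 1.154 under the equal UMI minimum, 0.883 with the left-out cluster and 1.035 to 1.084 without 1 pool. Outside S and G2/M it was -0.07 and changed sign to 0.013 under the stricter filter. It was -0.099 under the equal UMI minimum, -0.11 with the left-out cluster, -0.158 and -0.04 with state minimums of 1 and 5, and -0.223 to 0.082 without 1 pool, above 0 without the female stroke pool. The class under the stricter filter also held a cluster with Spp1 and Ch25h among its leading genes, so its values do not reflect the filter alone. Hist3h2ba in S against neither changed sign to 0.013 with a state minimum of 1, and no other named gene that was called changed sign under any alternative. The causes were not tested. The sex term sets sham beside stroke within each sex, and without it 52 genes were higher and 1 lower in all microglia-like cells and 11 and 5 outside S and G2/M.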

Other observations

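Histone RNA was also measured in the other sorted cells. In ependymal or choroid plexus-like cells the level was 12.5, 12.6, 11.1 and 12.6 histone UMIs per 10,000 in female sham, female stroke and the male pools in the same order, and 65.8, 58.5, 64.4 and 64.9% of these UMIs came from Hist1h2bc, the H2B gene that among microglia-like cells was lower in those with both lists. In neutrophil-like cells of the stroke pools the level was 9.06 (95% interval 8.21 to 9.99) and 13.4 (95% interval 12.01 to 14.9) UMIs per 10,000, with 33.2% and 29.1% from Hist1h2bc. Neither class had more than 5 cells with both lists in a pool.

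Monocyte-derived macrophage-like cells had fewer histone UMIs per 10,000 in the stroke pools. The 13 female and 44 male sham cells had 21.3 (95% interval 18.97 to 23.8) and 22.6 (95% interval 21.3 to 24.02) UMIs per 10,000, and the 1106 and 583 stroke cells had 2.87 (95% interval 2.78 to 2.95) and 3.21 (95% interval 3.09 to 3.33). With 1 pool per group, few sham cells and intervals for counting error only, this was not tested. The share of cells with a histone UMI after thinning differed less, at 53.85% and 63.6% in sham and 47.0% and 56.3% in stroke. Cells with both lists numbered 1 and 2 in sham and 26 and 4 in stroke, and their part in the levels was not tested. The cells of the class also lay in different clusters: cluster 19, led by Ear2, Itgal and Pglyrp1, held 8 and 25 of the sham but 9 and 5 of the stroke cells, while cluster 4 held 5 and 19 of the sham and 1052 and 561 of the stroke cells. The other 45 and 17 stroke cells were in cluster 18, which held none from sham. The cluster left out of the microglia-like class had 7.22 (95% interval 7.06 to 7.39) and 7.57 (95% interval 7.40 to 7.75) UMIs per 10,000 in stroke.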
